A study of Homo sapiens with 65 samples.

Results

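The mitotic and replication genes described here are 40 genes of the human cell cycle, taken from a list of symbols. All 40 were matched to identifiers of the deposited table, which holds 58302 genes. By textbook function 24 act in mitosis and 16 in DNA replication or entry into S phase. None was lost to the filter on low counts in any comparison, and the lowest count of a member in any library was 41, for CCNE1.

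Cells that divide switch these genes on in waves. E2F factors drive the G1/S genes: cyclin E, the CDC25A phosphatase, the MCM helicase and its loaders CDC6 and CDT1, the clamp PCNA, and the nucleotide enzymes RRM2 and TYMS. Later the MuvB complex with B-MYB and FOXM1 drives the mitotic genes: cyclins A and B with CDK1, the kinases PLK1, AURKA and AURKB, the spindle checkpoint, kinetochore and motor proteins, and the APC/C activator CDC20. In resting cells the DREAM complex, which contains MuvB, holds both waves down, and it reaches mitotic promoters through an element called CHR, often with CCAAT boxes nearby that NF-Y binds.

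Total RNA was sequenced from cells of H9, a human embryonic stem cell line, carrying the reporter alleles SOX17 mCHERRY/w and RUNX1C GFP/w in every sample. KO is a derivative RUNX1 -/- line in which CRISPR editing removed the DNA-binding domain of RUNX1, and WT is the parental reporter line. The labels do not say how many clones the KO line stands for. Samples titled KO at day 2 and 4 lack the mutation in their genotype label; they were grouped by title.

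On the mesoderm protocol, with BMP4, activin A, VEGF, SCF and FGF2 from day 0, SB431542 and CHIR 99021 from day 2, and IGF2 from day 4, KO and WT cells were taken unsorted at day 0, 2 and 4, with 4 libraries per genotype and day. At day 7 CD34+ CD43- cells were sorted into SOX17+ (4 KO, 4 WT) and SOX17- (3 KO, 4 WT) fractions. At day 12 the CD34+ fractions were SOX17+ CD43- (4 KO, 4 WT), SOX17+ CD43+ (2 WT), SOX17- CD43+ (3 WT) and SOX17- CD43- (1 KO, which entered no test). For short, the CD34+ CD43- fractions are called endothelium here and the SOX17- CD43+ fraction blood. On the endoderm protocol, with activin A throughout, CHIR and PI-103 at day 0 and DMH-1 afterwards, WT cells were taken unsorted at day 0, 2, 4 and 7, with 3 libraries per day. Titles of these day 0 libraries say Undifferentiated and name no protocol. They were grouped with the endoderm series and are called endoderm or endoderm-protocol day 0 here. No label says that replicates came from separate cultures, so p-values measure the spread between these libraries, which may be technical.

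The 65 libraries held 10366048 to 19081031 counts. Gene levels are given as CPM, counts scaled to a common library total with TMM factors over all libraries, and the median log2 fold change of all genes tested lay between -0.05 and 0.02 in every comparison. The sorted fractions were described by sums of cell type markers, which do not check the gates of the sort. At day 12, 5 endothelial markers summed to 102 to 184 CPM in WT SOX17- CD43+ cells. They summed to 3935 to 4420.4 CPM in WT SOX17+ CD43- cells of that day. At day 7 the endothelial sums were 2583 to 3085 CPM in WT SOX17+ and 1991 to 2828 CPM in WT SOX17- cells, and these ranges overlap. For 6 blood markers the day 12 sums were 4187 to 4855 CPM in SOX17- CD43+ cells and 19.8 to 34.4 CPM in SOX17+ CD43- cells. RUNX1 was at 36.7, 35.8, 27.8 and 40.9 CPM in KO SOX17+ cells of day 7, against 86.5, 89.04, 147 and 91.8 CPM in WT. At day 12 it was at 19.1, 9.15, 18.6 and 11.2 CPM in KO SOX17+ CD43- cells, against 68.4, 34.3, 51.4 and 87.6 CPM in WT. The counts per gene include exons outside the deleted part, so they do not check the deletion itself.

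Promoters of the mitotic and the replication genes held CHR and E2F motifs at different rates. The set of RefSeq (GRCh38.p14) promoters used here held 250 bases before to 50 after the start. It covered 32 of the 40 members, 19 mitotic and 13 replication genes. Only 1 window per gene was searched, so other start sites of a gene were left out. Both strands were searched for a CHR, written TTTGAA with TTCGAA as its accepted variant, for the CCAAT box, and for E2F sites. The E2F letters were TTCCCGC as the usual form, with TTGGCGC as another accepted form, beside TTCGCGC as a further form and finally TTGCCGC as well. The reverse of CCAAT reads ATTGG and can share bases with an E2F site. A CHR motif stood in 12 of 19 mitotic promoters (63.2%) and 1 of 13 replication promoters (7.69%), against 16.6% of all 27305 promoters in the set. E2F motifs were more frequent in replication promoters, in 11 of 13 (84.6%), than in mitotic promoters, in 5 of 19 (26.3%). Both shares lay above the 13.1% of all promoters. CCAAT stood in 15 of 19 (78.9%) and 9 of 13 (69.2%), against 35.7% of all promoters. A CHR motif together with CCAAT was found in 11 of 19 mitotic promoters (57.9%), 1 of 13 replication promoters and 6.58% of all. A match of letters is not a measured binding site.

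Promoters of 3 mitotic and 2 replication genes are printed because they show both layouts, on the coding strand 5′ to 3′, with CHR, CCAAT and E2F motifs in capitals. They belong to CCNB2, a mitotic cyclin (chr15:59104896-59105195, plus strand), CDC20, the APC/C activator (chr1:43358731-43359030, plus strand), PLK1, the mitotic kinase (chr16:23678639-23678938, plus strand), MCM3, a subunit of the replicative helicase (chr6:52284693-52284992, minus strand), and CDC6, which loads that helicase (chr17:40287629-40287928, plus strand).
CCNB2: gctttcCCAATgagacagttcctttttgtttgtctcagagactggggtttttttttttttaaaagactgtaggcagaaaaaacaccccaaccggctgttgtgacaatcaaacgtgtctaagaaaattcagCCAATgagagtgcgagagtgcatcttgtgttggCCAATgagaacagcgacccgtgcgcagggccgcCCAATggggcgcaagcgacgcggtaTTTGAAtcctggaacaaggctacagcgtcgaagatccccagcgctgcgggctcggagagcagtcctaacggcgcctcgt
CDC20: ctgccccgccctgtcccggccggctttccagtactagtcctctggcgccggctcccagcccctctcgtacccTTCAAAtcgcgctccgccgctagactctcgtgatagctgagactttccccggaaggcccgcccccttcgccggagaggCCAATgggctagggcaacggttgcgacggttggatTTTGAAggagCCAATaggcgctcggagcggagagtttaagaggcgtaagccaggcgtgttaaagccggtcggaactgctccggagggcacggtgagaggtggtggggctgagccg
PLK1: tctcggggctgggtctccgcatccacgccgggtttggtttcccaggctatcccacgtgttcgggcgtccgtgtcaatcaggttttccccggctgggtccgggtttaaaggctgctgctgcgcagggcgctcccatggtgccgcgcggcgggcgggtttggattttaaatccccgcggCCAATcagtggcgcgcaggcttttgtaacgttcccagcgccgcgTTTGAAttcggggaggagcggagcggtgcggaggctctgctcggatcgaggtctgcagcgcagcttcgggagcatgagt
MCM3: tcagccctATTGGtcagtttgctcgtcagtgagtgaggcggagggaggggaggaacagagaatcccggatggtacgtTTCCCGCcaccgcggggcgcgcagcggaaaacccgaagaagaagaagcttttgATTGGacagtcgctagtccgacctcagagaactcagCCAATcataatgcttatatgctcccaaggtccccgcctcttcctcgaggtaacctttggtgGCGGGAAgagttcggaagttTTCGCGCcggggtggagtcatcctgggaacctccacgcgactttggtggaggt
CDC6: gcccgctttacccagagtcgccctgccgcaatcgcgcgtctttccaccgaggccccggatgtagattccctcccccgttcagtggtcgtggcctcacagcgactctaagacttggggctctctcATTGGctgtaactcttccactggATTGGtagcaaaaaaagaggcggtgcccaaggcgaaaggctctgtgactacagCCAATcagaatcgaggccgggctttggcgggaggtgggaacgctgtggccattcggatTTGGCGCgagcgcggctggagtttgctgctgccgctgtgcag
In CCNB2 and PLK1 the CHR letters TTTGAA begin 29 bases before the start, and in CDC20 65 bases before it, with a reversed copy at -178. CCNB2 has 4 CCAAT boxes upstream of its CHR, the nearest 54 bases before the start. The capitals in MCM3 and CDC6 mark CCAAT boxes in either orientation and E2F motifs, which lie at -173, -23 and -3 in MCM3 and at 8 in CDC6, counted from the start as 0. Neither of these replication promoters holds the CHR letters in this window.

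Levels between genes are compared per length, as RPKM derived from the authors' log2 values. PCNA was the most abundant member, at a mean of 88.2 RPKM over the 65 libraries, followed by MCM3 at 83.9 RPKM and CCNB1 at 69.4 RPKM. The lowest were CCNE2, the second E-type cyclin, at 2.85 RPKM, and CDC25C, the phosphatase that activates CDK1, at 5.62 RPKM.

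The summed CPM of the 40 genes spanned more than a factor of 5 between group means. It was 7861 ± 68.1 CPM (SD, n = 3) in endoderm-protocol cells of day 0 and 7945 ± 235 CPM (SD, n = 4) in KO mesoderm cells of day 2, near the top. It was 1519 ± 402 CPM (SD, n = 4) in WT SOX17+ CD43- endothelium of day 12, the lowest group. In that group 34 of the 40 members, and 24 of 24 mitotic genes, had their lowest mean log2 CPM of all 19 groups. The highest means of log2 CPM were spread over more groups: 8 members peaked in KO day 2 cells, and 7 each in endoderm day 0, endoderm day 2 and day 12 blood.

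**Figure D1:**
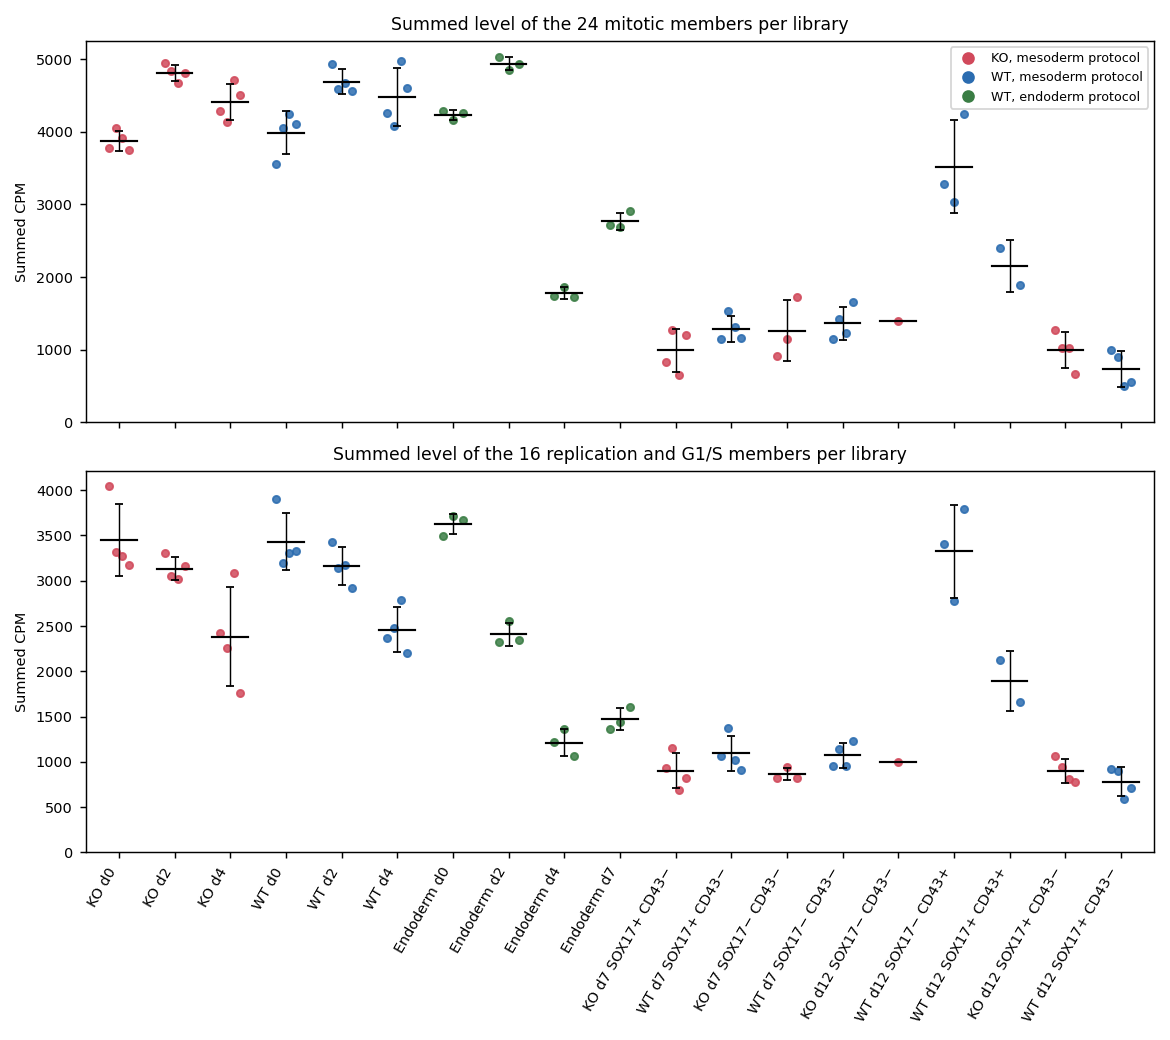
Summed CPM of the 24 mitotic members (top) and the 16 replication and G1/S members (bottom), 1 point per library and 1 column per group, with the mean (bar) and SD (whisker). Unsorted cells stand high to day 4 of the mesoderm protocol and to day 2 of the endoderm protocol, endoderm falls at day 4, and endothelium of day 7 and 12 is low while the CD43+ fractions of day 12 are high again.

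From day 0 to day 2 of mesoderm induction, mitotic genes were higher more often than lower. Between WT day 2 and day 0, 9 of 24 mitotic genes rose and 2 fell, and 3 of 16 replication genes rose and 2 fell, by edgeR's quasi-likelihood test (threshold 0.05 after Benjamini-Hochberg adjustment). Of the genes tested 22.2% were higher and 22.9% lower, so 12 of 40 higher members is a little above and 4 of 40 lower members below the background. CENPE, the kinetochore motor that aligns chromosomes, was at 281, 245, 237 and 273 CPM in WT day 2 cells, against 51.8, 99.4, 99.3 and 103 CPM at day 0. Every day 2 library lay above every day 0 library, and CENPE rose by 1.56 ± 0.15 (log2 fold change ± SE, adjusted p = 1.64e-08), the largest change among the members. In bulk RNA, a change in the share of dividing cells and a change in RNA per cell cannot be told apart.

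TYMS, which makes thymidylate, was at 129.996, 137, 122 and 115 CPM in WT day 2 cells, against 58.2, 73.03, 66.6 and 64.3 CPM at day 0. The groups did not overlap, and TYMS rose by 0.96 ± 0.10 (adjusted p = 1.15e-07). CDC25B, a phosphatase that starts CDK1 activation, rose by 0.85 ± 0.10, the motor KIF20A by 0.61 ± 0.12 and the proliferation antigen MKI67 by 0.49 ± 0.09. Against the majority, BUB1B, the checkpoint kinase BubR1, stood at 148, 129.7, 129.99 and 138 CPM at day 2, against 175, 197, 252 and 216 CPM at day 0. It fell by 0.61 ± 0.09 on the log2 scale (adjusted p = 1.46e-05). The helicase subunit MCM6 fell by 0.56 ± 0.13, while TYMS of the same wave rose; MCM5 was the other helicase gene called lower, and MCM2, MCM3, MCM4 and MCM7 were not called. The count of 4 lower members went to 2 without the low-count filter and to 2 without WT day 2 replicate 1, 3 or 4. BUB1B shares 10.2% of its exon bases with the readthrough gene BUB1B-PAK6. TYMS shares 39.1% of its exon bases with ENOSF1 on the opposite strand. ENOSF1 held 126478 counts over all libraries, against 119208 for TYMS. No source names the strand setting of the counting, and the part of ENOSF1 in the TYMS values of any comparison was not tested. RRM2, FOXM1, PLK1, CCNA2, CDC25C, CCNE2, MCM7, KIF20A, KIF23, MCM2, GINS2 and MAD2L1 also overlap other genes over part of their exons.

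In the KO line largely the same genes moved over these days. Of 40 members 15 rose and 3 fell between KO day 2 and day 0, against backgrounds of 21.6% and 21.7% of all genes. CENPE was at 309, 308, 298 and 257 CPM in KO day 2 cells, against 67.5, 88.8, 87.9 and 88.02 CPM at KO day 0, a rise of 1.82 ± 0.15. Of the 15 genes that rose in KO, 11 also rose in WT, which is 73.3% of the KO list and 91.7% of the WT list of 12. The shared part over all genes was not counted, so this overlap cannot be called particular to the members. All 3 KO genes that fell, BUB1B, MCM5 and MCM6, were among the 4 that fell in WT. With the 2 KO groups fitted alone, 6 members rather than 3 fell.

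Between day 2 and day 4 the replication wave declined while a few genes kept climbing. From WT day 2 to day 4, 8 of 16 replication genes fell and 1 rose, and 6 of 24 mitotic genes fell and 3 rose, against 25.5% of all genes lower and 25.9% higher. The median log2 fold change was -0.35 over the replication genes, -0.07 over the mitotic genes and -0.01 over all genes. CCNE1, the E-type cyclin that activates CDK2, was at 17.6, 18.3, 24.05 and 18.4 CPM in WT day 4 cells, against 47.6, 52.95, 42.2 and 51.9 CPM at day 2. It fell by 1.32 ± 0.15 (adjusted p = 2.81e-07), with no overlap. MCM5, a helicase subunit, was at 132, 135, 130.04 and 119 CPM at day 4, against 283, 247, 271 and 238 CPM at day 2, and fell by 1.01 ± 0.18 (adjusted p = 8.83e-05). CDC25A fell by 0.97 ± 0.11 and, among mitotic genes, CENPE by 0.71 ± 0.15 and the transcription factor FOXM1 by 0.54 ± 0.13.

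TYMS went the other way. It was at 183, 211, 246 and 193 CPM in WT day 4 cells, against 129.996, 137, 122 and 115 CPM at day 2, and rose by 0.72 ± 0.10 (adjusted p = 5.25e-06). CDC25B rose by 0.66 ± 0.09 and TOP2A, the topoisomerase that untangles chromosomes, by 0.36 ± 0.12. In KO cells 18 members fell and 3 rose over the same days, against 24.5% and 26% of all genes. Of the 18 that fell in KO, 13 also fell in WT, 72.2% of the KO list and 92.9% of the WT list of 14. Here too the shared part over all genes was not counted. TYMS and CDC25B rose in both lines. Replicate 4 of KO day 4 stood apart, with the ribonucleotide reductase subunit RRM2 at 255, 239.7, 295 and 123 CPM in KO day 4 replicates 1 to 4; without it 16 members fell and 3 rose.

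**Figure D2:**
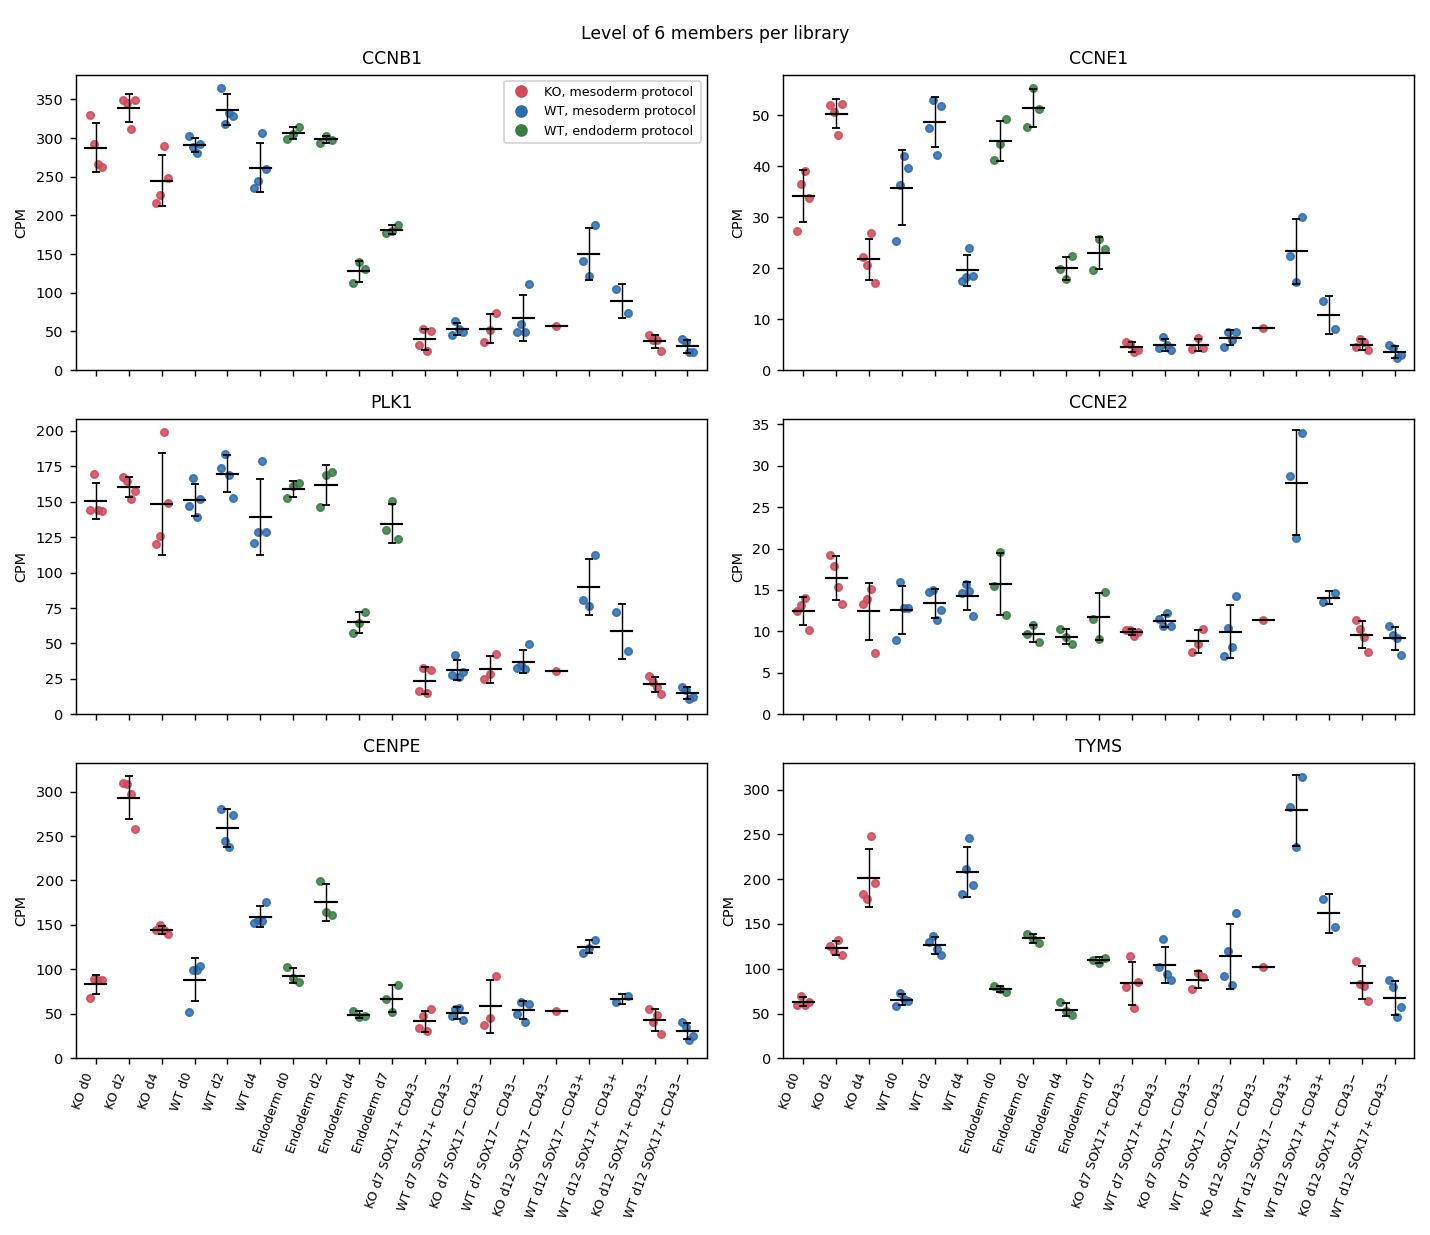
CPM of CCNB1, PLK1, CENPE, CCNE1, CCNE2 and TYMS per library, with the mean (bar) and SD (whisker) per group. CENPE peaks at day 2 on both protocols, CCNE1 drops by day 4 on both protocols, TYMS climbs from day 0 to day 4 on the mesoderm protocol alone, and CCNE2 stays within a narrow band outside day 12 blood.

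No member was called between KO and WT before the sort. At day 0, 2 and 4 edgeR called 0 of 40 members in KO against WT, and 0%, 0% and 0% of all genes. Unadjusted p-values under 0.05 were found for 0, 2 and 1 members at these days, and DESeq2 and limma-trend called 0 members at each. CCNB1, the main mitotic cyclin, was at 216, 226, 289 and 249 CPM in KO day 4 cells, against 236, 244, 306 and 261 CPM in WT. The groups overlapped, with a log2 fold change of -0.10 (95% confidence interval -0.29 to 0.10). At day 4 the sums of 5 endothelial markers spread more widely in KO (21.8 to 469 CPM) than in WT libraries (138 to 295 CPM). The part of such differences in cell make-up was not tested.

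On the endoderm protocol the waves separated by day 2. Between endoderm day 2 and day 0, 10 of 24 mitotic genes rose and 2 fell, while 12 of 16 replication genes fell and 2 rose, against 28.7% of all genes higher and 26.8% lower. The medians were 0.13 over mitotic and -0.55 over replication genes, and 0.02 over all genes. Summed replication genes were at 2326, 2554 and 2347 CPM at endoderm day 2, against 3496, 3714 and 3668 CPM at day 0, without overlap. Summed mitotic genes were at 5025, 4848 and 4935 CPM, against 4291, 4159 and 4254 CPM, again without overlap but in the other direction.

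CDC25A, the phosphatase that activates CDK2, was at 68.1, 72.2 and 61.7 CPM in endoderm day 2 cells, against 129.6, 151 and 141 CPM at day 0, and fell by 1.06 ± 0.12 (adjusted p = 3.53e-06). MCM5 was at 154, 188 and 159.6 CPM, against 307, 379.98 and 336 CPM at day 0, and fell by 1.03 ± 0.12. MCM2 fell by 0.85 ± 0.12, MCM4 by 0.87 ± 0.12 and PCNA by 0.52 ± 0.13. Among the helicase genes only MCM6 was not called, at -0.20 ± 0.10. On the mitotic side CENPE rose by 0.92 ± 0.14, TOP2A by 0.68 ± 0.09, the kinase AURKA by 0.64 ± 0.08 and the checkpoint kinase BUB1 by 0.58 ± 0.09. TYMS rose by 0.79 ± 0.09 against the fall of its wave, and BUB1B and the motor KIF23 fell by 0.31 ± 0.08 and 0.40 ± 0.09. Other replication genes showed the same split, with 16 of 35 lower and 2 higher, among them the chromatin assembly subunit CHAF1A at -1.21 ± 0.11. Of 36 other mitotic genes 23 rose and 1 fell.

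Between endoderm day 2 and day 4 both waves dropped together. In endoderm day 4 cells, 24 of 24 mitotic genes and 14 of 16 replication genes were lower than at day 2, and none was higher, against 20.2% of all genes lower and 22.2% higher. The summed level was 2953, 3231 and 2789.5 CPM at day 4, against 7351, 7401 and 7282 CPM at day 2, 2.46-fold lower. TOP2A was at 199, 188 and 186 CPM at day 4, against 728, 613 and 669 CPM at day 2, and fell by 1.78 ± 0.09 (adjusted p = 5.35e-09). CCNB1 was at 112, 139 and 131 CPM, against 294, 303 and 298 CPM at day 2, and fell by 1.19 ± 0.09. CENPE, which had risen before, fell by 1.81 ± 0.15 and the kinetochore protein CENPF by 1.79 ± 0.18. In the replication wave MCM4 fell by 1.46 ± 0.12, the licensing factor CDT1 by 1.37 ± 0.12 and CCNE1 by 1.33 ± 0.12. Not called were CDC25A at -0.28 ± 0.12, already low at day 2 and called without endoderm day 4 replicate 2 at -0.37, and CCNE2 at 10.3, 9.36 and 8.45 CPM, against 9.68, 10.8 and 8.68 CPM at day 2.

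The companion genes moved with them. Of the 36 other mitotic genes 35 fell and none rose, with a median of -1.08, and of 35 other replication genes 32 fell and none rose, with a median of -0.76. Among 7 tested CDK inhibitors 5 rose and 1 fell, with a median of 1.08. CDKN2B, the inhibitor p15 of CDK4 and CDK6, was at 20.5, 26.04 and 6.08 CPM in endoderm day 4 cells, against 0.406, 0.407 and 0.246 CPM at day 2, a rise of 5.63 ± 0.71 (adjusted p = 2.51e-05). CDKN1A, the inhibitor p21, was at 3.45, 2.53 and 1.28 CPM, against 9.56, 8.49 and 14.96 CPM at day 2, and fell by 2.15 ± 0.39. The inhibitors did not move as a block.

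By day 7 the mitotic genes had partly returned. Between endoderm day 7 and day 4, 21 of 24 mitotic genes and 3 of 16 replication genes rose and none fell, against 11.2% of all genes higher and 10.1% lower. The summed mitotic level was 2711, 2694 and 2905 CPM at day 7, against 1736, 1869 and 1728 CPM at day 4, 1.56-fold higher, and the summed replication level 1364, 1441 and 1607 CPM, against 1217, 1362 and 1061 CPM. PLK1 was at 129.8, 150.2 and 124 CPM at day 7, against 57.6, 64.7 and 72.1 CPM at day 4, and rose by 1.04 ± 0.11 (adjusted p = 1.29e-05). CDC25C rose by 0.89 ± 0.12 and TOP2A by 0.82 ± 0.09. The replication genes that rose were TYMS by 0.99 ± 0.10, CDT1 by 0.57 ± 0.12 and the helicase cofactor GINS2 by 0.54 ± 0.10. MCM2 was at 60.4, 73.3 and 73.7 CPM at day 7, against 57.99, 73.3 and 56.8 CPM at day 4, and was not called (0.12 ± 0.12). Among mitotic genes CDC20, CENPF and TTK were not called. Endoderm day 4 replicate 3 was numbered with the sorted libraries; without it 23 members rose.

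**Figure D3:**
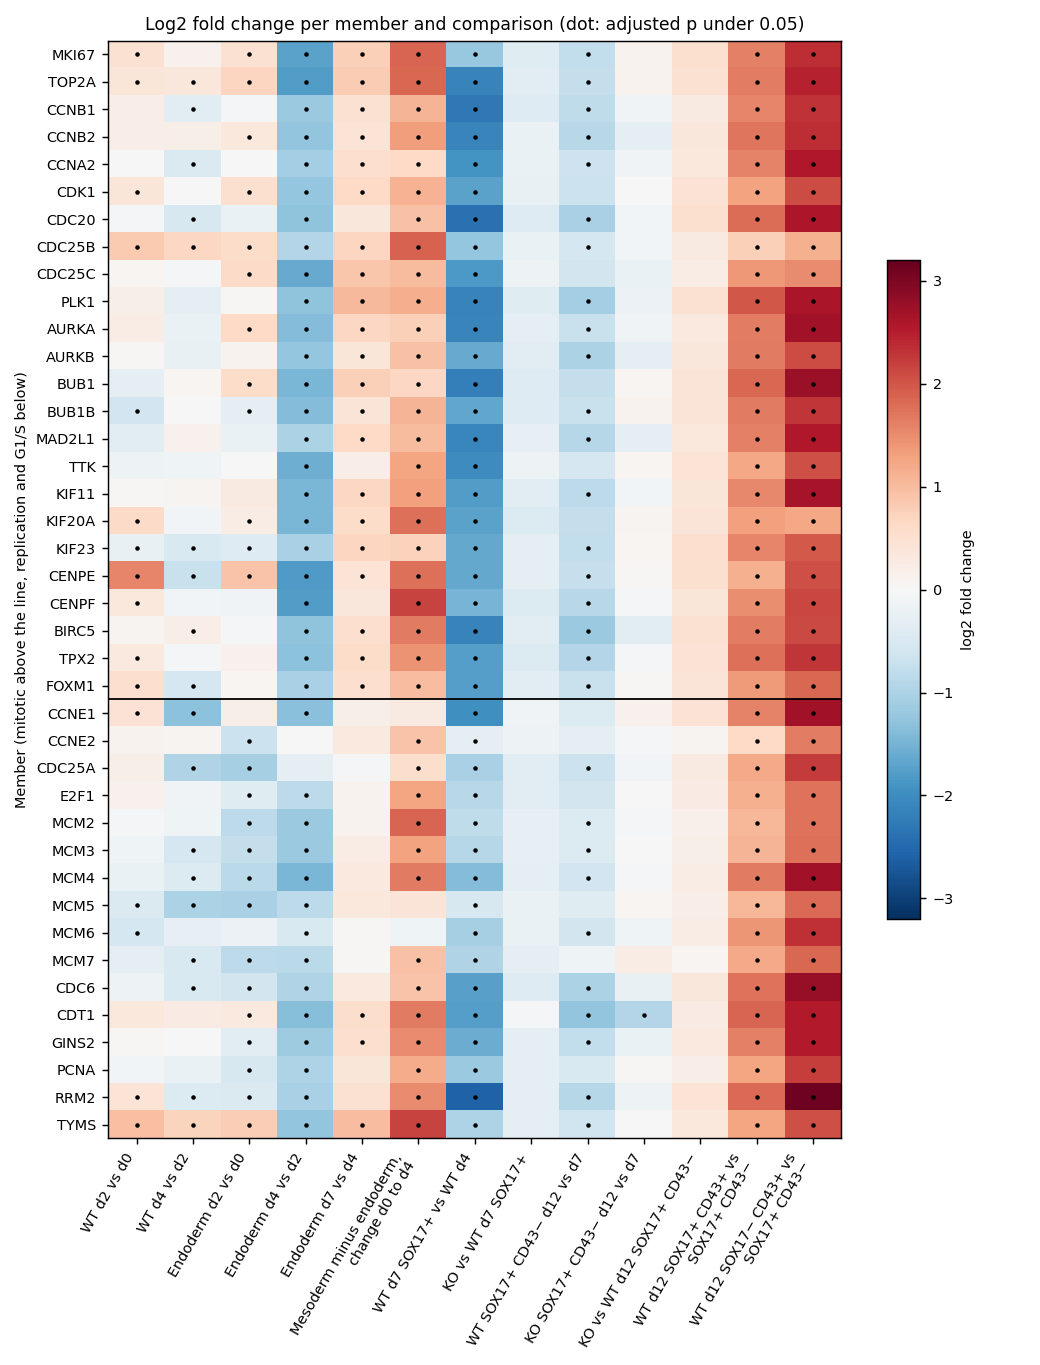
Log2 fold change of every member (rows, mitotic above the line) in 13 comparisons (columns), red for higher and blue for lower in the first-named group; a dot marks an adjusted p under 0.05. Endoderm day 4 and endothelium of day 7 are blue nearly throughout, the CD43+ fractions are red throughout, and the KO against WT columns hold no dot.

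The 2 protocols were compared by their changes from their own day 0 libraries. For day 0 to day 2 the mesoderm change exceeded the endoderm change for 3 mitotic and 8 replication genes and was below it for 3 mitotic genes, against 13.9% of all genes above and 15.5% below. The difference was 1.23 ± 0.15 for CDC25A (adjusted p = 8.05e-06), 0.89 ± 0.21 for RRM2 and 0.78 ± 0.15 for MCM2. For BUB1 it was -0.88 ± 0.15. The 14 called members became 7 without endoderm day 2 replicate 3, 8 without endoderm day 0 replicate 2 and 9 without endoderm day 2 replicate 1. The 11 above became 6 without the first or the second of these and 7 without endoderm day 2 replicate 1 or WT day 2 replicate 1.

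For day 0 to day 4 the protocols had parted. All 24 mitotic genes and 13 of 16 replication genes had a higher change on the mesoderm protocol and none a lower one, against 19.9% of all genes above and 20.5% below. The median difference was 1.14 over mitotic and 1.23 over replication genes. It was 2.17 ± 0.16 for CENPF (adjusted p = 1.95e-09), 2.16 ± 0.15 for TYMS, 1.88 ± 0.17 for CDC25B and 1.87 ± 0.15 for MCM2. Not called were MCM6 at -0.14 ± 0.14, CCNE1 at 0.28 ± 0.21 and MCM5 at 0.40 ± 0.18. Among other mitotic genes 29 of 36, and among other replication genes 28 of 35, were higher on the mesoderm side. The protocols' libraries carry separate number series, but each change was taken within its own series apart from endoderm day 4 replicate 3, and 37 members were called without that library as with it.

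The balance of the waves can be read as the mean log2 CPM of the mitotic genes minus that of the replication genes, a description with no test. It was -0.06 ± 0.08 (SD) in endoderm-protocol cells of day 0, 0.60 ± 0.09 at day 2, 0.20 ± 0.12 at day 4 and 0.48 ± 0.07 at day 7. In WT mesoderm cells it was 0.01 ± 0.18 at day 0, 0.17 ± 0.03 at day 2 and 0.40 ± 0.12 at day 4. Day 0 replicate 1 stood below the other day 0 libraries in both genotypes, at -0.24 in KO and -0.26 in WT. KO day 4 replicate 4 stood above its group at 0.90, against 0.17 to 0.34 in the other KO day 4 libraries. The lowest group means were -0.46 ± 0.10 in WT blood of day 12 and -0.45 ± 0.15 in WT SOX17+ CD43- endothelium of that day, although their summed levels were far apart.

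**Figure D4:**
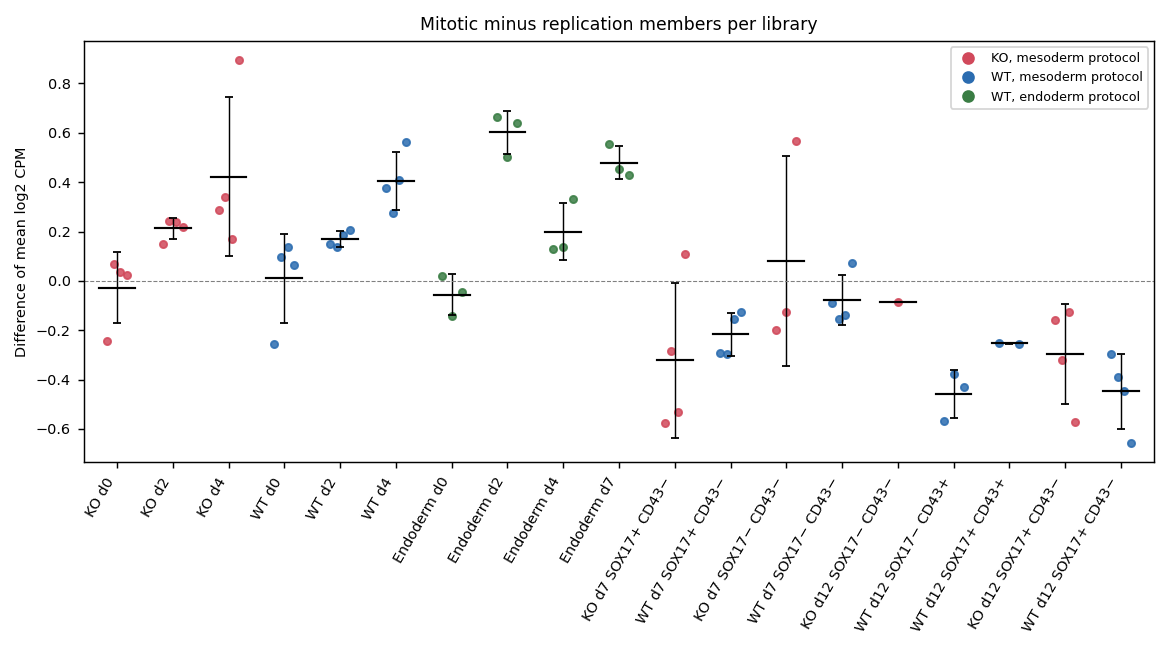
Mean log2 CPM of the 24 mitotic genes minus that of the 16 replication genes per library, with the mean (bar) and SD (whisker) per group; the dashed line marks 0. Endoderm day 2 stands highest, with a mean of 0.60, and WT blood and WT SOX17+ CD43- endothelium of day 12 lowest, at -0.46 and -0.45.

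Endothelium of day 7 carried less of every member than unsorted mesoderm. In WT SOX17+ cells of day 7, 40 of 40 members were lower than in WT day 4 cells, against 31.1% of all genes lower and 31.7% higher. The summed level was 2206, 2897, 2332 and 2071 CPM at day 7, against 6624, 6548, 7767 and 6805 CPM at day 4, 2.92-fold lower. The median was -1.81 over mitotic and -1.06 over replication genes. RRM2 was at 40.1, 49.7, 41.8 and 34.3 CPM in day 7 SOX17+ cells, against 273, 259.96, 242 and 239 CPM at day 4, and fell by 2.59 ± 0.12 (adjusted p = 1.69e-07). CDC20 fell by 2.38 ± 0.16, BUB1 by 2.18 ± 0.12 and CCNE1 by 1.97 ± 0.19. CCNB1 was at 45.6, 64.01, 52.97 and 49.8 CPM, against 236, 244, 306 and 261 CPM at day 4, and fell by 2.28 ± 0.13. MCM5 fell by only 0.52 ± 0.13. The 5 endothelial markers summed to 2583 to 3085 CPM at day 7, against 138 to 295 CPM at day 4. Sorting, day and library number series all differ between these groups and cannot be told apart.

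Unsorted endoderm of the same day held more of most members. Endoderm day 7 cells were higher than WT SOX17+ endothelium of day 7 for 23 of 24 mitotic genes and 9 of 16 replication genes and lower for 1, MCM2, against 35.3% of all genes higher and 36.3% lower. BUB1 was at 166, 183 and 163 CPM in endoderm, against 30.2, 38.4, 33.4 and 31.1 CPM in endothelium, a difference of 2.36 ± 0.10 (adjusted p = 9.38e-10). CCNE1 was higher by 2.22 ± 0.18, PLK1 by 2.10 ± 0.15 and MCM6 by 1.56 ± 0.12. MCM2 was at 60.4, 73.3 and 73.7 CPM in endoderm, against 116, 153, 111 and 97.03 CPM in endothelium, and was lower by 0.79 ± 0.14 (adjusted p = 0.000355). MCM2 and MCM6 encode subunits of the same hexamer, and they stood in opposite order between these cells. CENPF, the mitotic gene not called, was at 123, 112 and 187 CPM in endoderm, against 120.4, 168, 159.9 and 134 CPM in endothelium. Here too the sort and the library number series differ along with the cell type and cannot be told apart.

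Within day 7 endothelium no member was called between the gates or between the genotypes. SOX17+ against SOX17- cells gave 0 called members in WT, with 1.6% of all genes called, and 0 in KO, with 0.67%. Unadjusted p-values under 0.05 were found for 0 and 1 members, and DESeq2 and limma-trend called none. The gates differed in 6 mesenchyme and smooth muscle markers, which summed to 167 to 409 CPM in WT SOX17+ cells, against 621 to 1151 CPM in WT SOX17- cells. PLK1 was at 27.7, 41.6, 26.5 and 29.98 CPM in WT SOX17+ cells, against 32.4, 34.6, 32.1 and 49.4 CPM in WT SOX17- cells, with a log2 fold change of -0.24 (95% confidence interval -0.76 to 0.27). WT SOX17- replicate 4 stood highest, with a summed mitotic level of 1657 CPM, against 1151, 1415 and 1224 CPM in replicates 1 to 3. That spread enters each comparison with WT SOX17- cells. KO against WT also gave 0 called members in SOX17+ cells, with 0.0566% of all genes called, and 0 in SOX17- cells, with 0.0087%. The difference between KO and WT in the SOX17+ against SOX17- contrast was called for 0 members, none of them at an unadjusted p under 0.05, and for 0% of all genes. In KO against WT, 0 and 1 members had an unadjusted p under 0.05, and DESeq2 and limma-trend called none. The summed replication level was 825 to 938 CPM in KO SOX17- cells, against 949.95 to 1231 CPM in WT, without overlap, while the summed mitotic levels overlapped.

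In KO SOX17+ cells of day 7 all 40 fold changes against WT were below 0, with a median of -0.31, and the ranges of the libraries overlapped. The summed level was 1771, 2416, 1347 and 2032 CPM in KO replicates 1 to 4, against 2206, 2897, 2332 and 2071 CPM in WT replicates 1 to 4. It was lower in KO in 4 of 4 same-numbered pairs, as was the replication sum, and the mitotic sum was lower in 3 of 4. With the replicate number as a block 0 members were called. CCNB1 was at 32.5, 52.5, 24.2 and 50.1 CPM in KO, against 45.6, 64.01, 52.97 and 49.8 CPM in WT, a log2 fold change of -0.40 (95% confidence interval -0.96 to 0.16). The 40 genes share the same 8 libraries and rise and fall together in them, so their common sign is 1 observation and not 40. At day 12 the sign was the other way: all 40 fold changes of KO against WT SOX17+ CD43- cells were above 0, with a median of 0.37 and 0 called, against 0.187% of all genes. At that day 1 member had an unadjusted p under 0.05, and DESeq2 and limma-trend called none. PLK1 was at 26.9, 23.1, 19.5 and 14.5 CPM in KO, against 19.3, 17.4, 11 and 12.03 CPM in WT, a log2 fold change of 0.50 (-0.04 to 1.03). The 6 blood markers summed to 3.01 to 4.40 CPM in these KO cells, against 19.8 to 34.4 CPM in WT, and their part was not tested.

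Many members were lower in WT SOX17+ CD43- endothelium of day 12 than of day 7. In day 12 cells 19 of 24 mitotic genes and 10 of 16 replication genes were lower than at day 7, and none was higher, against 9.23% of all genes lower and 8.57% higher. CDT1, which licenses origins, was at 13.3, 14.4, 7.16 and 8.27 CPM at day 12, against 27.95, 29.3, 19.4 and 25.8 CPM at day 7, and fell by 1.26 ± 0.22 (adjusted p = 0.000155). PLK1 was at 19.3, 17.4, 11 and 12.03 CPM at day 12, against 27.7, 41.6, 26.5 and 29.98 CPM at day 7, and fell by 1.08 ± 0.26 (adjusted p = 0.00405). BIRC5, the passenger protein survivin, fell by 1.19 ± 0.31 and CDC6 by 1.00 ± 0.23. Neither group overlapped the other for these genes. Markers moved as well: the 5 endothelial markers summed to 3935 to 4420.4 CPM at day 12, against 2583 to 3085 CPM at day 7, and the 6 blood markers to 19.8 to 34.4 CPM, against 45.5 to 56.9 CPM. Their part in the change was not tested.

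The number of calls rested on few libraries. The summed mitotic level was 999, 897, 503 and 552 CPM in day 12 replicates 1 to 4, against 1144, 1525, 1308 and 1157 CPM in day 7 replicates 1 to 4. The 29 calls became 6 without day 12 replicate 3, 12 without day 12 replicate 4, 11 without day 7 replicate 2 and 19 without day 7 replicate 1. All calls were downward in each of these. Of other mitotic genes 19 of 36 fell and none rose, and of other replication genes 15 of 35 fell and none rose. CDKN1B, the inhibitor p27, rose by 0.74 ± 0.18, alone among 6 tested CDK inhibitors.

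In the KO line the same interval gave 1 called member, CDT1, against 7.29% of all genes lower and 6% higher. CDT1 was at 16.7, 15.2, 10.54 and 9.41 CPM in KO day 12 cells, against 24.8, 26.3, 25.8 and 21.7 CPM at KO day 7, and fell by 0.94 ± 0.22 (adjusted p = 0.00332). PLK1 was at 26.9, 23.1, 19.5 and 14.5 CPM at KO day 12, against 16.1, 32.6, 15.3 and 31.2 CPM at KO day 7, with a log2 fold change of -0.20 (-0.72 to 0.33). The difference of the KO and WT changes was itself tested. It was called for 0 of 40 members, with 0.00435% of all genes called, while 18 members had an unadjusted p under 0.05 and DESeq2 and limma-trend called none. All 40 differences were above 0, with a median of 0.61, and for PLK1 the difference was 0.88 (0.14 to 1.63, adjusted p = 1.00). A difference between the lines over this interval was therefore not shown.

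Blood of day 12 stood far above the endothelium of the same day. In WT SOX17- CD43+ cells 40 of 40 members were higher than in WT SOX17+ CD43- cells, against 32.3% of all genes higher and 33.9% lower, with a median of 2.26. The summed level was 6681, 5818 and 8036 CPM in blood, against 1920.3, 1799, 1097 and 1259 CPM in endothelium, 4.51-fold higher. RRM2 was at 177, 136 and 251 CPM in blood, against 31, 29.2, 11.7 and 17.1 CPM in endothelium, higher by 3.10 ± 0.30 (adjusted p = 8.07e-10). CDC6 was higher by 2.79 ± 0.25, BUB1 by 2.77 ± 0.31, MCM4 by 2.70 ± 0.22 and CCNE1 by 2.70 ± 0.26. CCNB1 was at 141, 121 and 187 CPM in blood, against 39.8, 36.1, 23.2 and 23.3 CPM in endothelium, higher by 2.31 ± 0.30. The smallest difference, named after the values were seen, was 1.14 ± 0.16 for CDC25B. All 40 calls held with each library left out in turn. Mitochondrial genes took 8.37% to 8.85% of counts in blood and 6.46% to 7.23% in SOX17+ CD43+ cells, against 4.25% to 5.24% in this endothelium, and the part of this difference was not tested.

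The companions rose too, with 34 of 36 other mitotic genes and 35 of 35 other replication genes higher, led by the origin recognition subunit ORC1 at 3.40 ± 0.25. Of the D-type cyclins, which drive G1, CCND3 was higher and CCND1 lower. CCND3 was at 96.5, 104 and 163 CPM in blood, against 7.74, 8.54, 6.54 and 10.3 CPM in endothelium, higher by 3.89 ± 0.23. CCND1 was at 8.61, 12.8 and 20.2 CPM in blood, against 287, 349.8, 328 and 188 CPM in endothelium, lower by 4.36 ± 0.26.

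SOX17+ CD43+ cells, with 2 libraries, had summed levels of 4531 and 3552 CPM, between those of these fractions. Against SOX17+ CD43- endothelium 40 of 40 members were higher, against 15.5% of all genes higher and 10.9% lower, with a median of 1.55 over the members. PLK1 was at 72.2 and 44.97 CPM in SOX17+ CD43+ cells, against 19.3, 17.4, 11 and 12.03 CPM in SOX17+ CD43- cells, higher by 1.98 ± 0.30 (adjusted p = 1.5e-05). CDT1 was higher by 1.86 ± 0.25 and CCNB1 by 1.55 ± 0.32. Between 33 and 40 members were called with each library left out in turn. The 5 endothelial markers summed to 1869.96 to 2188 CPM in the SOX17+ CD43+ libraries and the 6 blood markers to 1081 to 1416 CPM, both between the values of the other fractions. Whether the fraction mixes both cell types was not tested.

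**Figure D5:**
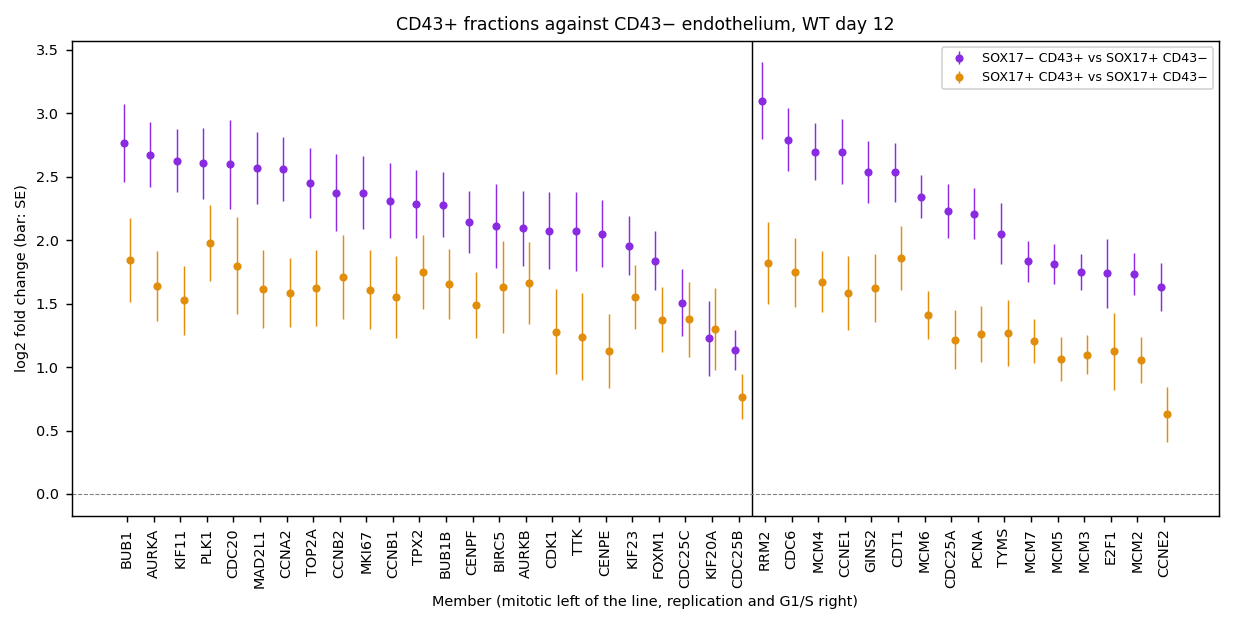
Log2 fold change ± SE of each member in WT SOX17- CD43+ blood (purple) and WT SOX17+ CD43+ cells (orange), both against WT SOX17+ CD43- endothelium of day 12. All points lie above 0; purple points run from 1.14 for CDC25B to 3.10 for RRM2, and most orange points lie below their purple partner.

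Directly compared, SOX17- CD43+ blood exceeded SOX17+ CD43+ cells for 14 of 16 replication genes and 6 of 24 mitotic genes, with none lower, against 14.6% of all genes higher and 22.9% lower. CCNE2 was at 28.7, 21.3 and 33.9 CPM in SOX17- CD43+ cells, against 13.5 and 14.7 CPM in SOX17+ CD43+ cells, higher by 1.00 ± 0.23 (adjusted p = 0.00126). RRM2 was higher by 1.28 ± 0.36, CCNE1 by 1.11 ± 0.30, the spindle motor KIF11 by 1.10 ± 0.30 and CDC6 by 1.05 ± 0.30. CCNB1 was not called, at 0.76 ± 0.35, but was called with these groups fitted alone or without the low-count filter. The 20 calls became 28 in either of those fits and 2 without SOX17+ CD43+ replicate 2, when RRM2, CCNE1, KIF11 and CDC6 were no longer called. CCNE2 overlaps INTS8 on the opposite strand over 37% of its exon bases, so reads of the 2 genes cannot be told apart there.

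Against SOX17- CD43- cells of day 7, blood of day 12 had 37 of 40 members higher and none lower, against 30% of all genes higher and 33% lower. MCM4, a helicase subunit, was at 498, 359 and 586 CPM in blood, against 102, 129, 92.7 and 95.2 CPM at day 7, higher by 2.21 ± 0.22 (adjusted p = 1.66e-09). The 3 members not called were KIF20A at 0.28 ± 0.29, CDC25B at 0.33 ± 0.16 and BIRC5 at 0.61 ± 0.32. Without replicate 4 of the day 7 SOX17- group CDC25B and BIRC5 were called too, at 0.45 and 1.02.

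Most members followed 1 profile over the 19 groups. The correlation of a member's group means (log2 CPM) with the mean of the other mitotic genes was above 0.9 for 30 of the 40, a description over 19 means that share libraries and depth. Those least like the mitotic mean, picked after the values were seen, were TYMS (0.38), CCNE2 (0.55), CDC25B (0.65) and MCM2 (0.73). Against the mean of the other replication genes they stood at 0.34, 0.70, 0.53 and 0.85, in the same order. The count and the list depend on which wave is the reference. TYMS and CCNE2 each overlap a gene on the opposite strand, over 39.1% and 37% of their exon bases. TYMS and CDC25B rose at both steps of the mesoderm protocol to day 4 in both lines. CCNE2 ranged only 3.15-fold over the groups, against 17.6-fold for CDC20 and 17.2-fold for RRM2. MCM2 was at 220.1, 209, 234 and 181 CPM in WT day 4 cells of the mesoderm protocol, against 248, 243, 231 and 241 CPM at day 0. In endoderm it was at 57.99, 73.3 and 56.8 CPM at day 4, against 255, 271 and 271 CPM at day 0.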

How the data were processed

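Total RNA of 65 libraries was analysed from the authors' table of fragment counts per gene, as deposited. Per the submitters' processing notes the tools included cutadapt 1.18, featureCounts and R 3.2.2 with the GRCh38 build, with no roles or order given. The authors' second deposited table, log2(RPKM + 1), was used to order genes by level and in limma-trend. The 58302 identifiers were named from GENCODE 29, and 58039 had a symbol. The members and all gene lists were chosen with earlier results of these data known, so patterns already seen give no independent support. Counts were filtered with filterByExpr (a count of at least 10, a total of at least 15) and tested with edgeR 4.0.16 (R 4.3.3; TMM, quasi-likelihood F test), in joint fits of each course, with Benjamini-Hochberg adjustment over all genes tested and a threshold of 0.05. The test was first run on simulated data. SE is the log2 fold change over the root of F, and 95% intervals use the t distribution. Alternatives were DESeq2 1.42.0, limma-trend 3.58.1, median-of-ratios scaling, no filter, the compared groups alone, blocks for replicate number or for stretches of 10 library numbers, and each library left out. Genes were named by a rule: the 3 largest called changes per role and direction, calls against the majority, all calls where few passed, and set representatives. Of 85 replicate pairs none held identical counts. Same-numbered libraries were taken as paired where the lowest correlation r of their deviations from the group means passed a set limit. This held for KO against WT at day 0 (r of 0.23 to 0.77) and KO against WT SOX17+ cells of day 7 (0.19 to 0.40). It also held for WT SOX17+ CD43- cells of day 12 against day 7 (0.13 to 0.22). These were treated as paired in the fits with the replicate block. Elsewhere r could be positive in every pair yet miss the limit, as in WT SOX17+ against SOX17- cells of day 7 (0.07 to 0.27). In sorted fractions with fewer libraries, replicate numbers of the titles do not always follow the stretches of library numbers. Same-numbered libraries there may not belong together, and both the check of pairs and the replicate block used the title numbers.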

Additional observations from a re-analysis of the deposited data

Results flagged for a closer look

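Of 143 sets of 4 libraries examined, 8 had 1 library far from the others, where the gap to the nearest library divided by the range passed the 95% critical value. Chance gives about 1 in 20. The summed replication level of KO day 0 replicate 1 was 4041 CPM, against 3175 to 3316 CPM in the other libraries (ratio 0.837). PLK1 was at 169.8 CPM in KO day 0 replicate 2, against 143 to 144 CPM in the others (0.961). CCNB1 was low in KO day 2 replicate 3, at 312 CPM (0.881). CDK1 was high in KO day 4 replicate 4, at 179 CPM (0.882). WT day 4 replicate 3 was high for PLK1 (0.862) and CCNE1 (0.870), and WT day 7 SOX17- replicate 4 for CCNB1 (0.831) and PLK1 (0.859).

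Differences between the protocols were tested as differences of changes. From day 0 to day 2, 14 of 40 members differed between mesoderm and endoderm, against 13.9% of all genes above and 15.5% below. From day 0 to day 4, 37 of 40 differed, against 19.9% of all genes above and 20.5% below. The single library of KO SOX17- CD43- cells of day 12, which entered no comparison, summed to 2392 CPM over the members, above the 1435 to 2339 CPM of the KO SOX17+ CD43- libraries.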

How the results depend on the processing

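No named gene turned direction in any alternative computed for the results given here. In alternatives that kept all libraries, calls of named genes were lost in 50 cases and gained in 9. There 4 levels moved, and 2665 results were unchanged. With 1 library left out, calls of named genes were lost in 275 cases and gained in 6, and 3144 were unchanged. Apart from libraries left out, 3 counts moved by over 1.5 times: members lower in WT day 2 against day 0 were 2 without the low-count filter (4 with it), members lower in KO day 2 against day 0 were 6 with the 2 groups fitted alone (3 otherwise), and members below in the mesoderm minus endoderm change to day 2 were 1 without the filter (3 with it). With 1 library left out in turn, members lower in WT day 2 against day 0 ranged from 2 to 5. In the mesoderm minus endoderm change to day 2, 7 to 19 members were called, 6 to 14 above and 1 to 5 below. In WT SOX17+ CD43- cells of day 12 against day 7, 6 to 33 were called, all lower. In SOX17- CD43+ against SOX17+ CD43+ cells 2 to 21 were called, all higher, and the lone SOX17+ CD43+ library was then assumed to vary like the other groups. With the replicate block, members called were 0 in KO against WT at day 0, 0 in SOX17+ cells of day 7 and 29 in WT day 12 against day 7, as without it. The cause of these shifts was not tested. Depth was not varied; the lowest count of a member in a library was 41.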
